A study of Mus musculus with 2 samples.

Results

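The 9 genes described here encode enzymes of the tricarboxylic acid cycle, with cytosolic aconitase beside them: citrate synthase (Cs), cytosolic aconitase (Aco1), the first 2 subunits of the 2-oxoglutarate dehydrogenase complex (Ogdh and Dlst), the subunits of succinyl-CoA synthetase (Suclg1, Suclg2 and Sucla2), fumarase (Fh1) and mitochondrial malate dehydrogenase (Mdh2). They were chosen by gene name, 9 of 16269 reference genes with counts, and all models assigned to each name were summed. All 9 were detected in both libraries and all passed the minimum summed count of 10. They were measured by long-read RNA sequencing of the hearts of male B6CASTF1/J mice, offspring of a C57BL/6J and a CAST parent, aged 14 days. The series holds 1 group with 2 libraries, replicate 2 and replicate 1, so no conditions can be compared. The labels speak of 3 males for a tissue sample, give both libraries the same donor label, and describe both with the same tissue sample and cDNA names although their tissue samples carry different numbers. SDs may therefore measure technical spread only. The p-values printed here cover counting error only and hold no spread between libraries.

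The tricarboxylic acid cycle runs in the mitochondrial matrix, where it oxidises the acetyl group of acetyl-CoA to carbon dioxide and loads the electron carriers that feed the respiratory chain. Heart muscle makes most of its ATP by the mitochondrial oxidation it feeds, whether the acetyl-CoA comes from fatty acids, glucose, lactate or ketone bodies. In the muscle of mammals the 2-oxoglutarate dehydrogenase step is activated by calcium, which ties the cycle to contraction.

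Replicate 2 held 1064679 counts on reference genes and replicate 1 held 1059016. Levels are given in CPM, the count after both libraries are scaled to the same total. A count is 1 long read assigned by the authors to a transcript model, so that a CPM is not divided by transcript length, and levels per kilobase of the dominant annotated transcript are given beside it. All 10 cardiomyocyte markers were detected, with 56212 counts in replicate 2 and 55683 in replicate 1, and the liver and lung markers had 0 counts in both. The libraries differed in other tissue markers: the 4 atrial markers summed to 1278 counts in replicate 2 and 5154 in replicate 1, the 5 erythroid markers to 13620 and 18269, the 5 thymocyte markers to 78 and 1, the 4 brown adipocyte markers to 80 and 162, and the 4 macrophage markers to 354 and 233. Of the 10 cardiomyocyte markers, 2 were called higher in replicate 2 and 4 in replicate 1 by the exact test described for the enzymes. The 5 endothelial markers summed to 854 counts in replicate 2 and 988 in replicate 1, and the 5 fibroblast markers to 6952 and 7149. In each of these 2 sets, 1 marker was called higher in replicate 1 and 0 in replicate 2. In bulk tissue, fewer cells of a type and less RNA per cell cannot be told apart.

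The 9 genes together took 10819 counts, or 1.02% of the library, in replicate 2 and 10240 counts, or 0.967%, in replicate 1. Mdh2, which oxidises malate to oxaloacetate and so closes the cycle, was the highest of them. It had 2999.97 CPM in replicate 2 and 3039 CPM in replicate 1, a mean of 3019 ± 27.4 CPM (SD, n = 2) and rank 28 among all genes. Sucla2, the ADP-forming beta subunit of succinyl-CoA synthetase, followed with 1665 CPM in replicate 2 and 1585 CPM in replicate 1. Cs, which joins acetyl-CoA to oxaloacetate, had 1481 and 1409 CPM in the same order. The values of Fh1, which hydrates fumarate to malate, were 1460 CPM in replicate 2 and 1381 CPM in replicate 1, so its range overlapped that of Cs. Ogdh, the decarboxylating subunit of the 2-oxoglutarate dehydrogenase complex, had 1216 CPM in replicate 2 and 1052 CPM in replicate 1.

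The other 4 genes were lower. Suclg1, the alpha subunit shared by both forms of succinyl-CoA synthetase, had 627 CPM in replicate 2 and 597 CPM in replicate 1. Dlst, the succinyl-transferring core of the 2-oxoglutarate dehydrogenase complex, had 396 CPM in replicate 2 and 312 CPM in replicate 1. Suclg2, the GDP-forming beta subunit, had 239 and 227 CPM, again with replicate 2 first. Aco1, which in the cytosol acts as an aconitase or, without its iron-sulfur cluster, as an iron regulatory protein that binds messenger RNA, was the lowest with 77.0 CPM in replicate 2 and 68.9 CPM in replicate 1. Its rank was 2318, against ranks of 28 to 676 for the other 8. Apart from Cs and Fh1, no neighbours in this order overlapped over the 2 libraries.

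**Figure D1:**
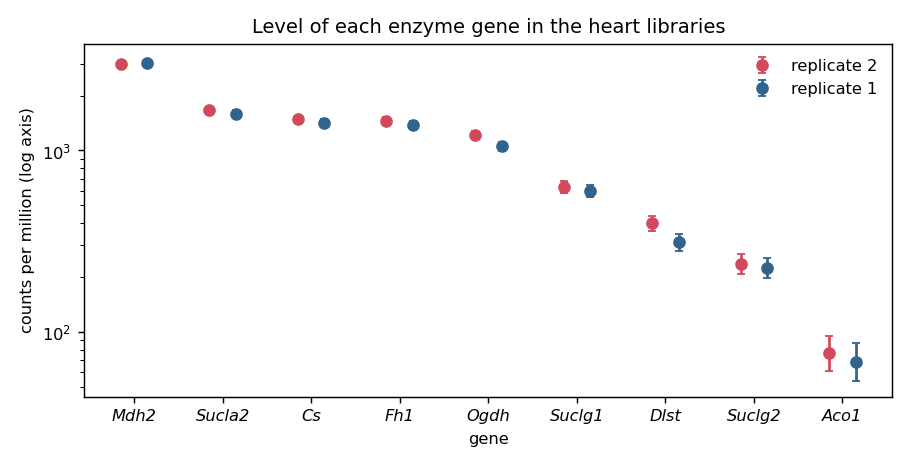
Level of each gene in CPM (log axis) in replicate 2 and replicate 1, in order of the mean. Bars are exact Poisson intervals at 95%, which cover counting error only. The intervals of the 2 libraries overlap except in Ogdh and Dlst, and the order runs down from Mdh2 at 2999.97 and 3039 CPM to Aco1 at 77.0 and 68.9 CPM.

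On the scale of CPM per kilobase the order kept Mdh2 and Sucla2 at the top, with means of 2074 ± 18.8 and 729 ± 25.3 CPM per kilobase (SD, n = 2 each). Fh1 came next on that scale at 539 ± 21.2 CPM per kilobase and then Cs at 494 ± 17.5, and Suclg1 at 403 ± 14.3 stood above Ogdh at 275 ± 28.2. Dlst, Suclg2 and Aco1 were the lowest 3 on both scales, with 128 ± 21.7, 69.1 ± 2.51 and 19.0 ± 1.49 CPM per kilobase. For 8 of the genes, the nearest protein-coding gene by level over the 2 libraries, measured as the distance of log2 CPM, was Cyc1 for Mdh2, Acadl for Sucla2, Ndufs1 for Cs, Casq2 for Fh1, Mybpc3 for Suclg1, Fblim1 for Dlst, Fbxl22 for Suclg2 and Arhgef10l for Aco1. With 2 libraries this likeness is one of level and of the ratio between these libraries only.

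Genes whose products work in 1 complex were not at equal levels. The counts of the beta subunits Sucla2 and Suclg2 together were 3.03 times those of the alpha subunit Suclg1 in replicate 2 and 3.04 times in replicate 1, and 1.98 times in both per kilobase. The ADP-forming Sucla2 took 87.5% of the counts of the 2 beta subunits in replicate 2 (95% interval 85.9 to 88.9) and 87.5% in replicate 1 (85.9 to 88.9). Sucla2 thus exceeded Suclg2 by 6.980-fold in replicate 2 and 6.996-fold in replicate 1 in counts, and by 10.5-fold and 10.6-fold per kilobase. Values per kilobase rest on annotated lengths, 3367 bases for Suclg2-204, and the true ends of most reads are not visible. Ogdh exceeded Dlst by 3.07-fold in replicate 2 and 3.38-fold in replicate 1 in counts, and by 2.06-fold and 2.26-fold per kilobase.

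Of the pairs of related enzymes, Ogdh took 99.8% of the counts it shared with Ogdhl, a related gene known chiefly from brain, in replicate 2 and 99.6% in replicate 1, where Ogdhl had 2 and 4 counts. Mdh2 took 51.3% of the counts it shared with Mdh1, its cytosolic counterpart in the malate-aspartate shuttle, in replicate 2 and 52.4% in replicate 1. Neither these shares nor that of Sucla2 passed the test for a difference between the libraries (Fisher's exact test, two-sided, adjusted over the 3 pairs, lowest adjusted p = 0.637). Csl, a close relative of Cs with 91.9% identity over 1522 bases of the transcript, had 0 counts, and so did 4 processed pseudogenes that matched Cs, Suclg2 or Mdh2 at 85% identity or more.

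Between the libraries, 2 of the 9 genes passed the test, both higher in replicate 2, and 0 of 9 were higher in replicate 1 past the threshold. Of all 10162 genes tested, 3.26% were called in either direction, 1.6% as higher in replicate 2 and 1.65% as higher in replicate 1. That balance held for total counts as the scale, with 163 genes higher in replicate 2 and 168 in replicate 1, whereas TMM scaling gave 91 and 243 in the same order and DESeq2 size factors 123 and 196. The test was an exact binomial one, two-sided, on how a gene's reads divide between the libraries given their totals, and p-values were adjusted by Benjamini and Hochberg's method over all tested genes with a threshold of 0.05. Ogdh had 1295 counts in replicate 2 and 1114 in replicate 1, a ratio of 1.16 (95% interval 1.07 to 1.25) and a log2 ratio of 0.21 (exact binomial test, adjusted p = 0.0170). Dlst, its partner in the complex, had 422 counts in replicate 2 and 330 in replicate 1, a ratio of 1.27 (1.10 to 1.47) and a log2 ratio of 0.35 (exact binomial test, adjusted p = 0.0353). These tests hold counting error only, and both calls were lost when the libraries were scaled by TMM, a factor from the trimmed mean of gene ratios (log2 ratios of 0.13 and 0.26, adjusted p = 0.346 and 0.205), when DESeq2 size factors were used (0.17 and 0.30, adjusted p = 0.110 and 0.0966) or when the trend of the log2 ratio with transcript length was removed (0.05 and 0.23, adjusted p = 0.901 and 0.385). The differences in cell type markers given above lay between the same libraries, and their part in these ratios was not tested.

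The other 7 genes had log2 ratios between -0.02 for Mdh2 and 0.16 for Aco1, with adjusted p between 0.615 and 0.952 by the same exact test. The median log2 ratio of the 9 was 0.07, against 0.08 over all tested genes. The trend over all tested genes gave a log2 ratio of 0.16 at the length of Ogdh-201, which is 4127 bases, and 0.01 at that of Mdh2-201, which is 1456 bases. Of 10 further genes of the cycle, 0 passed in either direction (Idh2, Idh3a, Idh3b, Idh3g, Dld, Mrps36, Sdha, Sdhb, Sdhc and Sdhd), and their median log2 ratio was -0.014. Unadjusted, 3 of these 10 were under 0.05. Dld, the subunit that passes the electrons on, and Mrps36, which tethers it to the core of the 2-oxoglutarate dehydrogenase complex, had log2 ratios of opposite sign: Dld had 789 counts in replicate 2 and 734 in replicate 1 (log2 ratio 0.10, adjusted p = 0.709), and Mrps36 had 128 and 175 (-0.46, adjusted p = 0.141; exact binomial test for both).

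**Figure D2:**
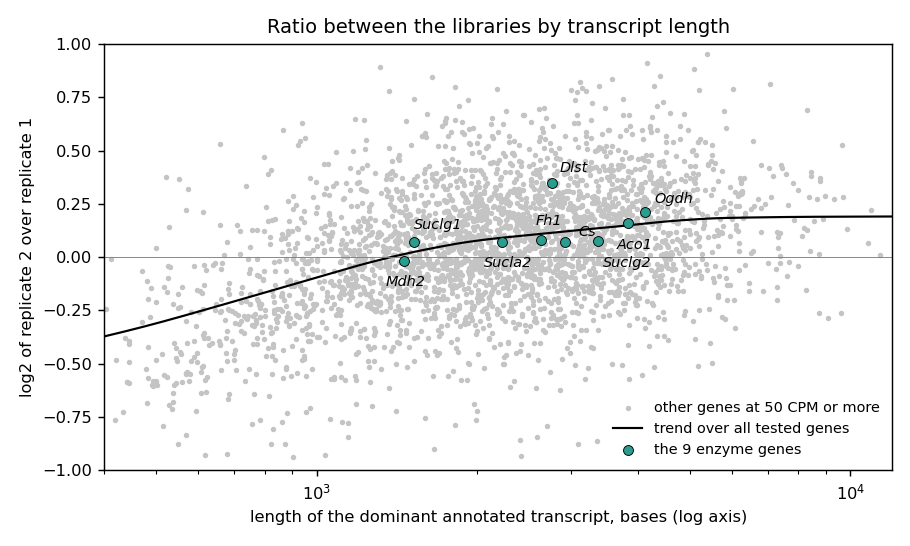
Log2 ratio of replicate 2 over replicate 1 against the length of the dominant annotated transcript in bases (log axis). Grey points are genes with a mean of at least 50 CPM, the line is the trend over all tested genes, and green points are the 9 genes. Other genes beyond the vertical axis are not drawn. The trend passes from below 0 for short transcripts to 0.16 at the length of Ogdh, and Dlst at 0.35 is the member farthest above it.

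In 8 of the 9 genes most counts lay on 1 annotated protein-coding transcript, and in Ogdh the leading one held 46.4%. The authors sorted models into Known (a full annotated intron chain), ISM (part of an annotated chain), NIC (a new combination of known splice sites), NNC (at least 1 new splice site) and Genomic. Known models held 96.0% of Mdh2 counts in replicate 2 and 96.5% in replicate 1. For Fh1 the values were 98.2% in replicate 2 and 98.6% in replicate 1. For Suclg1 the Known share was 95.2% in replicate 2 and 94.6% in replicate 1, for Sucla2 95.8% and 93.9% in the same order, and for Suclg2 91.7% in replicate 2 and 94.6% in replicate 1. Aco1 stood at 86.6% of its 82 counts in replicate 2 and 91.8% of its 73 in replicate 1, and Cs at 88.1% in replicate 2 and 86.1% in replicate 1. Ogdh and Dlst, of the 2-oxoglutarate dehydrogenase complex, had the lowest shares of the 9 genes. These were 57.1% for Ogdh in replicate 2 and 53.8% in replicate 1, and 61.4% for Dlst in replicate 2 and 61.5% in replicate 1.

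The median share over 5693 genes with at least 20 counts in each library was 84.3%, so that 7 of the 9 genes lay above it and Ogdh and Dlst below. The lower quartile was 66%. Ogdh stood at percentile 18.2 of these genes and Dlst at percentile 21.9, so shares as low as theirs were common. None of the 9 shares passed the test between the libraries after adjustment over all genes (Fisher's exact test, two-sided, lowest adjusted p = 0.860, for Sucla2), against 0.193% of all genes called, and unadjusted only Sucla2 was under 0.05 (exact p = 0.0131). Neither did the share of the dominant transcript among annotated ones in the 7 genes tested (lowest unadjusted exact p = 0.0704, for Dlst; 0.038% of all genes called).

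**Figure D3:**
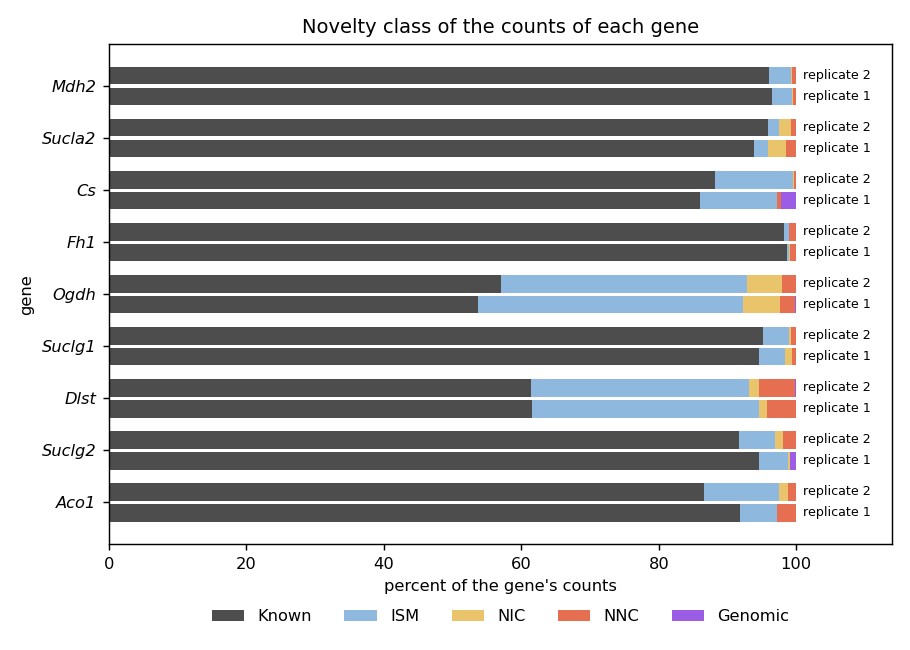
Percent of each gene's counts in each novelty class, with replicate 2 above replicate 1 for each gene. Known models fill the least of the bar in Ogdh, at 57.1% and 53.8%, and Dlst, at 61.4% and 61.5%, where ISM models take most of the rest.

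Among annotated transcripts, Cs-201, Aco1-201, Suclg1-201, Suclg2-204, Sucla2-203, Fh1-201 and Mdh2-201 each held between 87.1% and 96.3% of the gene's counts over both libraries. Dlst-201 held 60.8% and Ogdh-201 46.4%. A second annotated transcript reached 5% of the counts in only 2 genes: Ogdh-204 with 117 counts in replicate 2 and 95 in replicate 1, or 8.80% over both, and the 3-exon Fh1-203, which the annotation types as a retained-intron transcript, with 85 and 103 counts, or 6.23%. Fh1-203 covers the last exons only, and from the first to the seventh intron of Fh1-201 the share of counts stayed below that at the last 2.

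ISM models held most of the counts outside the Known class in Ogdh and Dlst. In Ogdh the ISM class held 463 counts in replicate 2 and 429 in replicate 1. Only 50.7% of Ogdh counts held the first intron of Ogdh-201 in replicate 2 and 48.4% in replicate 1, against 94.8% and 93.2% for its last intron. With every other first exon included, 63.8% and 61.0% were spliced to exon 2. Over 543 genes with dominant transcripts of 4000 to 5000 bases the median share holding the first intron was 77.2%, and Ogdh stood at percentile 16.4 of them. That percentile rests on the first intron of Ogdh-201 alone, so counts from the other first exons are taken as lacking it. The lower quartile of the class was 57.8%, below the shares of Ogdh spliced to exon 2 from any first exon. Other first exons of the class were not included. Dlst stood at percentile 15.6 of its length class of 2000 to 3000 bases, with 64.9% of counts holding the first intron in replicate 2 and 65.5% in replicate 1. The remaining 7 genes stood between percentiles 45.7 and 89.1 of their classes, from 87.5% for Cs to 96.8% for Mdh2.

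The starts of the incomplete Ogdh models were not even along the gene. Exons 11, 14, 15, 21 and 23, picked after their values were seen, held the starts of 297 of 463 ISM counts in replicate 2 and 279 of 429 in replicate 1, while exons 3 to 9 together held 37 and 30. In Dlst the last exon alone, as an unspliced model, held 71 counts in replicate 2 and 70 in replicate 1, or 16.8% and 21.2% of the gene. In Cs such last-exon models had 59 counts in replicate 2 and 91 in replicate 1. All 59 were classed ISM in replicate 2, whereas replicate 1 split them between ISM and Genomic, so that the Genomic class of Cs held 0 counts in replicate 2 and 34 in replicate 1.

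**Figure D4:**
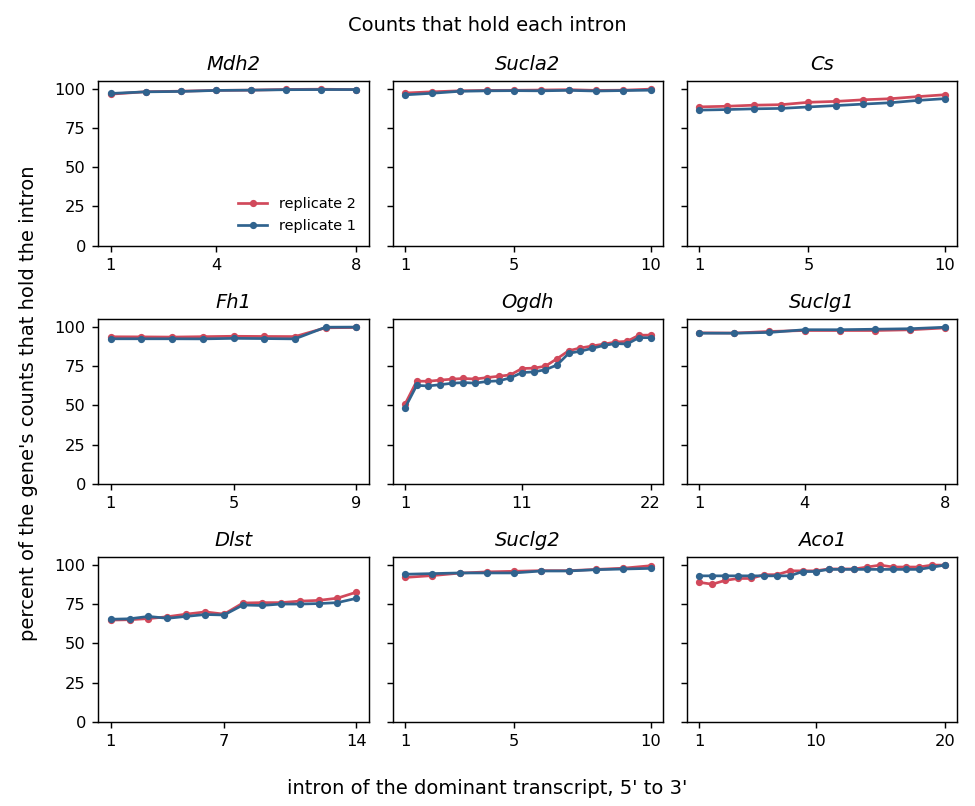
Percent of each gene's counts that hold each intron of its dominant transcript, from 5' to 3', in replicate 2 and replicate 1. Lines are near flat at the top except in Ogdh, which climbs from 50.7% and 48.4% at the first intron to 94.8% and 93.2% at the last, and in Dlst, which ends at 82.7% and 78.8%. Counts that begin at other first exons of Ogdh do not hold the first intron drawn.

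Ogdh began with any of 4 annotated first exons, all upstream of the start codon, which lies in exon 2 (chromosome 11, from position 6296978, GRCm38). The 5' splice site of Ogdh-201, shared with Ogdh-203, took 657 of 826 counts spliced to exon 2 in replicate 2 (79.5%, 95% interval 76.6 to 82.2) and 539 of 679 in replicate 1 (79.4%, 76.1 to 82.4). The site of Ogdh-204, 76 bases further downstream, took 124 counts (15.01%) in replicate 2 and 96 (14.1%) in replicate 1. The site of Ogdh-207 took 24 and 20 counts, or 2.91% and 2.95%, and that of Ogdh-202 took 16 and 20, or 1.94% and 2.95%, with replicate 2 first. The order of the 4 sites was thus the same in both libraries, except that the last 2 tied in replicate 1. To show where these starts lie, the RefSeq sequence (GRCm38.p6, plus strand) that ends 1 base before the annotated starts of Ogdh-201, Ogdh-207 and Ogdh-202 is given here, with TGACGTCA, the cAMP response element, and CATGCGC (read as GCGCATG on the strand shown) in capitals. The annotated start of Ogdh-204 lies within the first exon of Ogdh-201, so it has no separate stretch.
Upstream of Ogdh-201, chr11:6291347-6291632: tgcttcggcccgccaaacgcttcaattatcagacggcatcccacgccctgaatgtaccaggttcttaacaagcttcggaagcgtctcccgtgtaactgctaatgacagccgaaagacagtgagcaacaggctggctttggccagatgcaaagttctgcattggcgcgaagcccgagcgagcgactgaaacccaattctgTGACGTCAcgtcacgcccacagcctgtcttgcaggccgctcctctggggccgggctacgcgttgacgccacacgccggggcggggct
Upstream of Ogdh-207, chr11:6291920-6291984: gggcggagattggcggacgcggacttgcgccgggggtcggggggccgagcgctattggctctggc
Upstream of Ogdh-202, chr11:6292514-6292604: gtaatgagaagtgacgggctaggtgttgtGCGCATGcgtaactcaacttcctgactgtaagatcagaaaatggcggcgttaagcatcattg

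The stretch before the most used first exon holds 1 TGACGTCA, a palindrome that reads the same on both strands. The stretch before the first exon of Ogdh-202 holds 1 GCGCATG, and that of Ogdh-207 holds neither motif. Over the promoter windows of 250 bases before and 50 after each RefSeq start, searched on both strands, TGACGTCA was found for 2 of the 9 genes (Ogdh and Mdh2), against 2.03% of 27025 genes. Ogdh has 6 such windows and the other members 1 each, so a match was more likely to be met in Ogdh. By window, TGACGTCA was found in 4 of the 14 windows of the 9 genes, against 1.79% of 32851 over all genes. Windows of 1 gene can overlap and hold the same site, so they are not separate matches. CATGCGC, part of the nuclear respiratory factor site, was found for 1 (Ogdh), against 4.41% of all genes, and CCGGAAG, an ETS-family site, for 1 (Dlst), against 9.93%. The motifs were chosen with the Ogdh sequences in view. TNAAGGTCA, the extended half-site of estrogen-related receptors, was found for 0 of 9, against 1.43%. The matches printed here do not overlap, and a match is a description of the sequence, not of a bound site. The models do not show where transcription began, since Known models carry the ends of the annotation.

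Between exons 3 and 5 of Ogdh the annotation offers alternatives that code for different stretches of the protein near its amino terminus. Ogdh-201 and Ogdh-204 use a 103-base exon 4, Ogdh-202 puts a 91-base exon in its place, and Ogdh-203 uses the 91-base exon followed by a 45-base exon. Forms of mammalian OGDH that differ in this region are known to differ in their response to calcium. The reference sequences of the 3 exons (GENCODE M21, GRCm38, plus strand) are shown because almost all reads held only one of them. Capitals in the second mark the 69 bases used on their own in a new form described next.
103-base exon, chr11:6316978-6317080: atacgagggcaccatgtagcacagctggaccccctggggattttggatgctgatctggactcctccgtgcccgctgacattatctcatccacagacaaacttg
91-base exon, chr11:6316765-6316855: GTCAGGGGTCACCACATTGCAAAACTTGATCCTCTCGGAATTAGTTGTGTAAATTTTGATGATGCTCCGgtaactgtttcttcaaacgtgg
45-base exon, chr11:6324878-6324922: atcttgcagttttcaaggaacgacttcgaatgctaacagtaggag

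The 103-base exon and the 91-base exon matched at 25 of 36 bases (69.4%) in their best ungapped local alignment, from base 7 to base 42 of each. Heart reads used the 103-base exon nearly always. It was the form of 847 of the 854 counts that hold both exon 3 and exon 5 in replicate 2 (99.2%, 95% interval 98.3 to 99.7) and of 694 of 703 in replicate 1 (98.7%, 97.6 to 99.4). The 91-base exon in its place had 2 counts in replicate 2 and 5 in replicate 1, or 0.450% over both (0.181 to 0.924), and annotated Ogdh-202 and Ogdh-203 themselves had 0 counts. A form not in the annotation held the first 69 bases of the 91-base exon and then the 103-base exon, with 5 counts in replicate 2 (1 of them with the 45-base exon as well) and 3 in replicate 1. The 69 bases end just before a GT, the usual start of an intron, and their number is a multiple of 3. The 91-base exon, the 103-base exon and the 91-base and 45-base exons together (136 bases) leave the same remainder on division by 3, so that exchanging them keeps the reading frame.

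The first exon and exon 4 were not tied together as in the annotated Ogdh-202. All 39 counts in replicate 2 and all 40 in replicate 1 that began at the sites of Ogdh-207 or Ogdh-202 and reached exon 5 held the 103-base exon. The 2 most abundant new intron chains of the gene were these, otherwise identical to Ogdh-201: the Ogdh-207 site with 23 counts in replicate 2 and 19 in replicate 1, and the Ogdh-202 site with 14 and 19. Exon 12, a coding exon of 153 bases, a multiple of 3, was skipped by 11 counts in replicate 2 (1.14% of those that span it) and 12 in replicate 1 (1.496%).

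**Figure D5:**
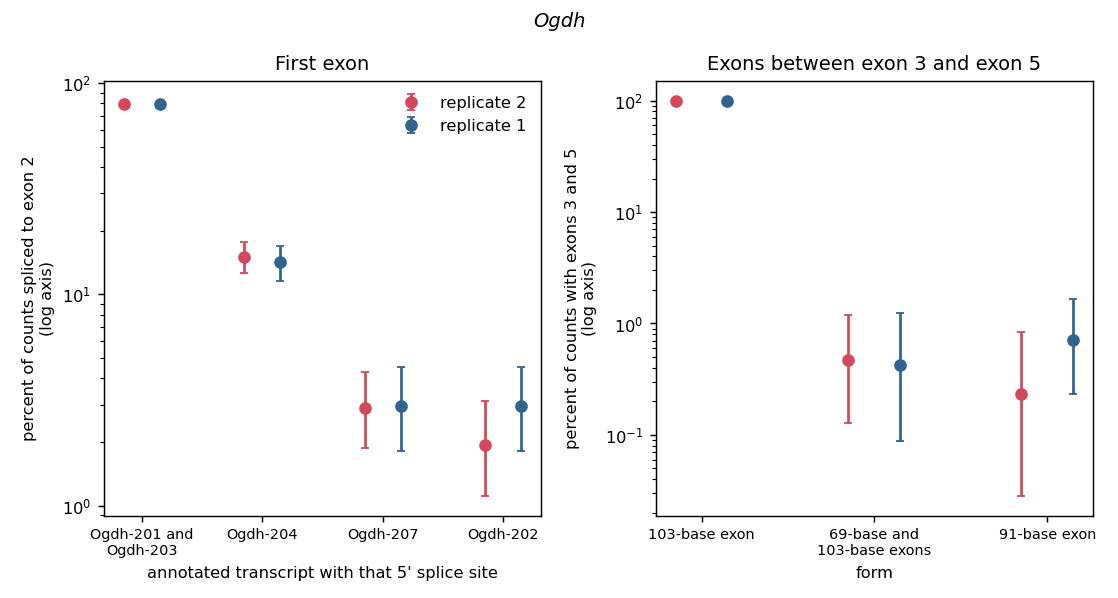
Left, percent of Ogdh counts spliced to exon 2 from each annotated 5' splice site. Right, percent of counts with exons 3 and 5 that hold each form between them, both on log axes with exact 95% intervals, in replicate 2 and replicate 1. The Ogdh-201 site leads at 79.5% and 79.4%, and the 103-base exon at 99.2% and 98.7%.

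Models of the NIC and NNC classes with introns held 229 counts over the 9 genes in replicate 2 (2.12%) and 225 in replicate 1 (2.20%). They formed 119 intron chains in replicate 2 and 92 in replicate 1, of which 33 were found in both and held 134 and 147 counts. By gene, the share on new chains was 7.10% for Ogdh in replicate 2 and 7.54% in replicate 1. For Dlst it was 6.64% in replicate 2 and 5.45% in replicate 1, and for Sucla2 2.43% in replicate 2 and 4.05% in replicate 1. For the other 6 genes it lay between the values of Suclg2, 3.15% in replicate 2 and 0.417% in replicate 1. Ogdh had 13 of the 33 chains found in both libraries, Sucla2 7, Dlst 4, Mdh2 3, Cs 2, Fh1 2, Suclg1 1, Suclg2 1 and Aco1 0. Across the 59 internal exons of the dominant transcripts that any count skipped, inclusion ran from 97.8% for exon 2 of Dlst to 99.98% for exon 6 of Mdh2. No inclusion passed the test between the libraries (Fisher's exact test, two-sided, lowest unadjusted exact p = 0.125; 0% of 9760 exons over all genes called).

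Dlst had the most used new splice site by share. Its exon 7 was joined to exon 8 from a 5' splice site 3 bases upstream of the annotated one in 14 counts in replicate 2 (3.32% of the gene) and 10 in replicate 1 (3.03%). The reference sequence across the annotated junction, 30 bases from each exon, is shown with the 3 bases that this form leaves out in capitals (chromosome 12, exon 7 ending at 85119344 and exon 8 starting at 85121987, GRCm38, plus strand).
Dlst exons 7 and 8: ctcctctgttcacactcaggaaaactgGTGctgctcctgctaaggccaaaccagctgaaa

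The bases left out begin with GT, and both exons are coding, so the form differs by 1 codon's length. Exon 2 of Dlst, of 34 bases, was skipped by 7 counts in replicate 2 and 4 in replicate 1.

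Of the exons of Sucla2, exons 2 and 9, both coding, were skipped most often. Exon 2, of 181 bases, was absent from 13 counts in replicate 2 (0.746% of those that span it) and 22 in replicate 1 (1.34%), and exon 9, of 121 bases, from 12 (0.678%) and 8 (0.480%). Neither length is a multiple of 3. Exon 2 is shown as the exon most often skipped in this gene (GENCODE M21, GRCm38, plus strand).
Sucla2 exon 2, chr14:73560441-73560621: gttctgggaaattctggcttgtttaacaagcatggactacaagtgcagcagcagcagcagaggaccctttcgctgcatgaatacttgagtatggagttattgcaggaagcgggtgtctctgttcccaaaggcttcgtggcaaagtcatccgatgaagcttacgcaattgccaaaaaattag

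In Sucla2 a 5' splice site 299 bases downstream of that of exon 1 was joined to exon 2. It had 3 counts in replicate 2 and 10 in replicate 1. Suclg1 skipped exon 3, of 117 bases and so a multiple of 3, in 2 counts in replicate 2 and 5 in replicate 1. The most frequent new sites of Mdh2 lay within 6 bases of annotated ones: a 3' splice site before exon 9 moved by 6 bases, with 7 counts in replicate 2 and 3 in replicate 1, and a 5' splice site of exon 3 moved by 2 bases, with 3 and 6. In Cs a 3' splice site moved by 3 bases had 3 counts and 1. Fh1 had a 3' splice site moved by 2 bases after exon 4, with 2 counts in replicate 2 and 3 in replicate 1, and Suclg2 skipped exon 2 in 2 counts and 1.

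In Sucla2, Fh1 and Suclg2 most counts of spliced models outside the Known class ended 359 bases or more before the end of the dominant transcript. These models include ISM models, which are parts of annotated chains, beside NIC and NNC models. Such models of Sucla2 that use the last exon mostly ended 359 bases upstream of the end of Sucla2-203. That end took 86.8% of their counts in replicate 2 and 87.3% in replicate 1. Those of Fh1 ended 1004 or 1010 bases upstream of the end of Fh1-201 in all 24 counts in replicate 2 and all 19 in replicate 1. In Suclg2 the distance was 1133 bases for 19 of 20 counts in replicate 2 and 5 of 8 in replicate 1. Each of these positions is itself an annotated end. Smaller groups of such models of Cs and Ogdh in replicate 1 also ended upstream. In Cs, 28 of 112 counts ended 1262 bases upstream, where the annotation has no end, and in Ogdh 6 of 446 ended 64 bases upstream. Those of Suclg1 ended 7 bases upstream in all 28 counts in replicate 2 and all 33 in replicate 1, and those of Dlst ended 2 bases further downstream in 27 of 91 counts in replicate 2 and 2 of 57 in replicate 1. Known models carry the annotation's ends, so the true ends of most reads are not visible. Outside the Known class most ends lay on annotated positions too, as in all 115 counts of Mdh2 in replicate 2 and all 98 in replicate 1. The positions given here are therefore ends of models, and whether single reads ended there was not tested.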

How the data were processed

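Per the file headers, the authors deposited counts of long reads per transcript model, as whole numbers without normalization, with a novelty class for each model and an annotation on mm10 that adds new models to GENCODE M21. Models are listed from 1 count upward. Per the labels, 2 µg of total RNA went into each library, with spike-ins of Lexogen set 4 and Ambion mix 1. Aligner, versions and filters: not given in the sources used here. Counts on new genes (2.89% of replicate 2 and 2.68% of replicate 1) and spike-ins (1.25% and 1.72%) were left out of totals and tests.

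Counts were summed by gene and scaled to CPM. Log2 ratios set replicate 2 over replicate 1 after 1 was added to each CPM. Genes with a summed count of at least 10 were compared by an exact binomial test, two-sided and conditional on the totals, and shares with at least 20 counts in each library by Fisher's exact test, both with Benjamini-Hochberg adjustment over all genes and a threshold of 0.05. With 1 library on each side, edgeR's quasi-likelihood test and DESeq2's test could not be fitted, so tests compare these 2 libraries only, and edgeR 4.0.16 and DESeq2 1.42.0 served for scaling and for an exact test with a common dispersion. Intervals of shares are Clopper-Pearson and of ratios exact, at 95%. No molecular identifiers are named, so reads may repeat molecules and intervals cover counting error only. New models were matched between libraries by every intron. Near copies were sought with blastn 2.17.0+ at 85% identity over 300 bases. Scripts ran in Python 3.11.15 with scipy 1.17.1 and R 4.3.3. Only the exact binomial test and Fisher's exact test of shares were tried on simulated counts. Those counts held counting error and no further spread between libraries. Sequences come from GENCODE M21 transcripts and RefSeq promoter windows.

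All 9 genes are named, with annotated transcripts at 5% or more of a gene's counts and new intron chains found in both libraries. The members, gene lists and alternatives were chosen with earlier results of these data known. Some related genes are not reported here.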

Additional observations from a re-analysis of the deposited data

Results flagged for a closer look

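New genes on the opposite strand overlapped 4 of the loci, each with at least 4 counts summed over both libraries. The share of all genes with such an overlap was not computed, so whether this number is unusual cannot be told. The floor set for 1 library was 3 counts, which was exceeded at Ogdh in both libraries and at Sucla2 in replicate 2 only. That floor is not a test of detection, and differences between the libraries in these counts were not tested. Over both libraries there were 9 such counts at Ogdh (4 in replicate 2 and 5 in replicate 1), 5 at Sucla2 (4 and 1), 4 at Cs (2 and 2) and 4 at Aco1 (1 and 3). Of these, 2 and 3 at Ogdh and 2 and 2 at Cs overlapped an exon of the dominant transcript. The annotated gene Kmo, on the strand opposite Fh1, had 2 counts in replicate 2 and 3 in replicate 1 that overlapped the Fh1 locus.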

How the results depend on the processing

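Ogdh and Dlst were the 2 genes called higher in replicate 2. The count of such genes was 0 with TMM scaling, 0 with DESeq2 size factors, 0 with the length trend removed and 0 by edgeR's exact test with a common dispersion, and 1 (Ogdh) with no minimum count or with Known models only. Of all genes, 331 were called, against 206 with the length trend removed, where fewer genes have a length, and 22 by edgeR's exact test. The common dispersion of edgeR's exact test came from the same 2 libraries, taken as 1 group, so the differences under test also set its variance. The cause of these changes in the number of calls was not tested. Log2 ratios near 0 changed sign without a call: with TMM scaling and by edgeR's exact test alike they became -0.012 for Cs, -0.012 for Suclg1, -0.0099 for Suclg2, -0.013 for Sucla2 and -0.0037 for Fh1, and with the length trend removed -0.048 for Cs, -0.061 for Suclg2, -0.020 for Sucla2 and -0.029 for Fh1. The Sucla2 share of the beta subunits was 87.7% on Known models alone, and that of Ogdh with Ogdhl was 100%. Leaving out either library gives the other's own share of each pair: 87.47% to 87.49% for Sucla2, 99.6% to 99.8% for Ogdh and 51.3% to 52.4% for Mdh2. With ISM models left out, the Known share was 88.2% for Ogdh and 90.8% for Dlst. No paired analysis was possible because the series holds 1 group. Depth limits the rarest forms: 3 counts are 0.232% of Ogdh in replicate 2 and 4.11% of Aco1 in replicate 1.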
